A study of Mus musculus with 24 samples.

Results

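The genes described here are 9 transcription factor genes of the serotonin neuron lineage, Fev, Gata2, Gata3, Lmx1b, Insm1, Nkx2-2, Foxa2, En1 and En2. They were chosen by name, and 9 of 9 were found among the 24062 genes of the count files. RNA came from the mouse brain at postnatal day 9, from tissue that lay directly behind the thalamus once the cortices were off. RNA of translating ribosomes (TRAP, a pull-down of the tagged ribosomes of 1 cell type with the mRNA they carry, here made with an allele that the labels describe as specific for serotonin cells) and total RNA of the tissue (input) were each sequenced from Celf6 knockout (KO) and wild type (WT) mice. CELF6 binds RNA and belongs to the CELF family. The groups were KO TRAP (5 libraries), WT TRAP (5), KO input (5) and WT input (3 in the tests). The strain, the promoter that drives the TRAP allele, the part of Celf6 that is deleted and whether tissue of several mice was pooled are not given in the sources used here. Nothing says that the libraries of a group came from separate animals, so p-values measure the spread between these libraries, which may in part be technical.

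Serotonin neurons arise from ventral progenitors of the hindbrain. Nkx2-2 and Foxa2 act in those progenitors, Insm1 acts as they leave the cell cycle, and Gata2, Gata3, Lmx1b and Fev then switch on, and in part keep up, the genes for making, packing and taking back serotonin. En1 and En2 mark the most rostral hindbrain and the midbrain, from which the dorsal raphe arises, and help to keep serotonin neurons there in place.

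Library totals lay between 3390423 and 6861963 counts, with 13788 to 15892 of 24062 genes seen. WT input 2 and WT input 3 differed by no more than repeat runs of 1 library do, with a chi-square of 1.34 per gene against 1.37 to 2.58 in 4 repeat pairs and 24.7 to 90.3 in the 35 remaining pairs of libraries of 1 group. Their counts were added up and counted as 1 library, WT input 2/3. The targeted gene Celf6 averaged 51.2 ± 38.0 normalized read counts (CPM) in KO TRAP and 142 ± 41.5 CPM in WT TRAP (SD, n = 5 each), and 15.2 ± 6.36 CPM in KO input (n = 5) and 51.0 ± 47.2 CPM in WT input (n = 3), or 24.2 CPM without WT input 5 (104 CPM). The library labelled KO TRAP 1 had 115 CPM of Celf6, which lies inside the WT TRAP range of 85.2 to 188 CPM, and WT input 2/3 had 15.4 CPM, which lies inside the KO input range of 4.79 to 22.0 CPM. Counts are per whole gene, so they can include exons outside the deleted part. The library labelled KO TRAP 1 also held RNA of the X-inactivation gene Xist (71.2 CPM) together with the Y-linked Kdm5d (17.4 CPM). WT input 5 held Xist (37.0 CPM) together with the Y-linked Eif2s3y (6.62 CPM), while WT TRAP 5, of the same number, had 0.475 CPM of Xist. Y-linked genes were uneven within each library. Eif2s3y had 0.561 CPM (3 counts) in KO TRAP 1, and Kdm5d had 0.301 CPM (1 count) in WT input 5. Where leaving out either library ends a call or moves a value of a member by much, the value without it is given.

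In TRAP against input, 4 of the 8 members that could be tested rose and 0 fell. Fev rose 46.9-fold, Gata2 17.9-fold, En1 3.33-fold and Gata3 2.71-fold (edgeR quasi-likelihood test, adjusted p below 0.05 over all genes). DESeq2 called 6 members, these 4 with Lmx1b higher and Nkx2-2 lower. Among all 14261 genes tested, 2.41% rose and 2.31% fell, 4.72% in all. Foxa2 had too few counts for the test, so these counts cover members that passed a filter on low counts and not all 9. In bulk RNA, fewer cells of a type and less RNA per cell cannot be told apart.

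**Figure D1:**
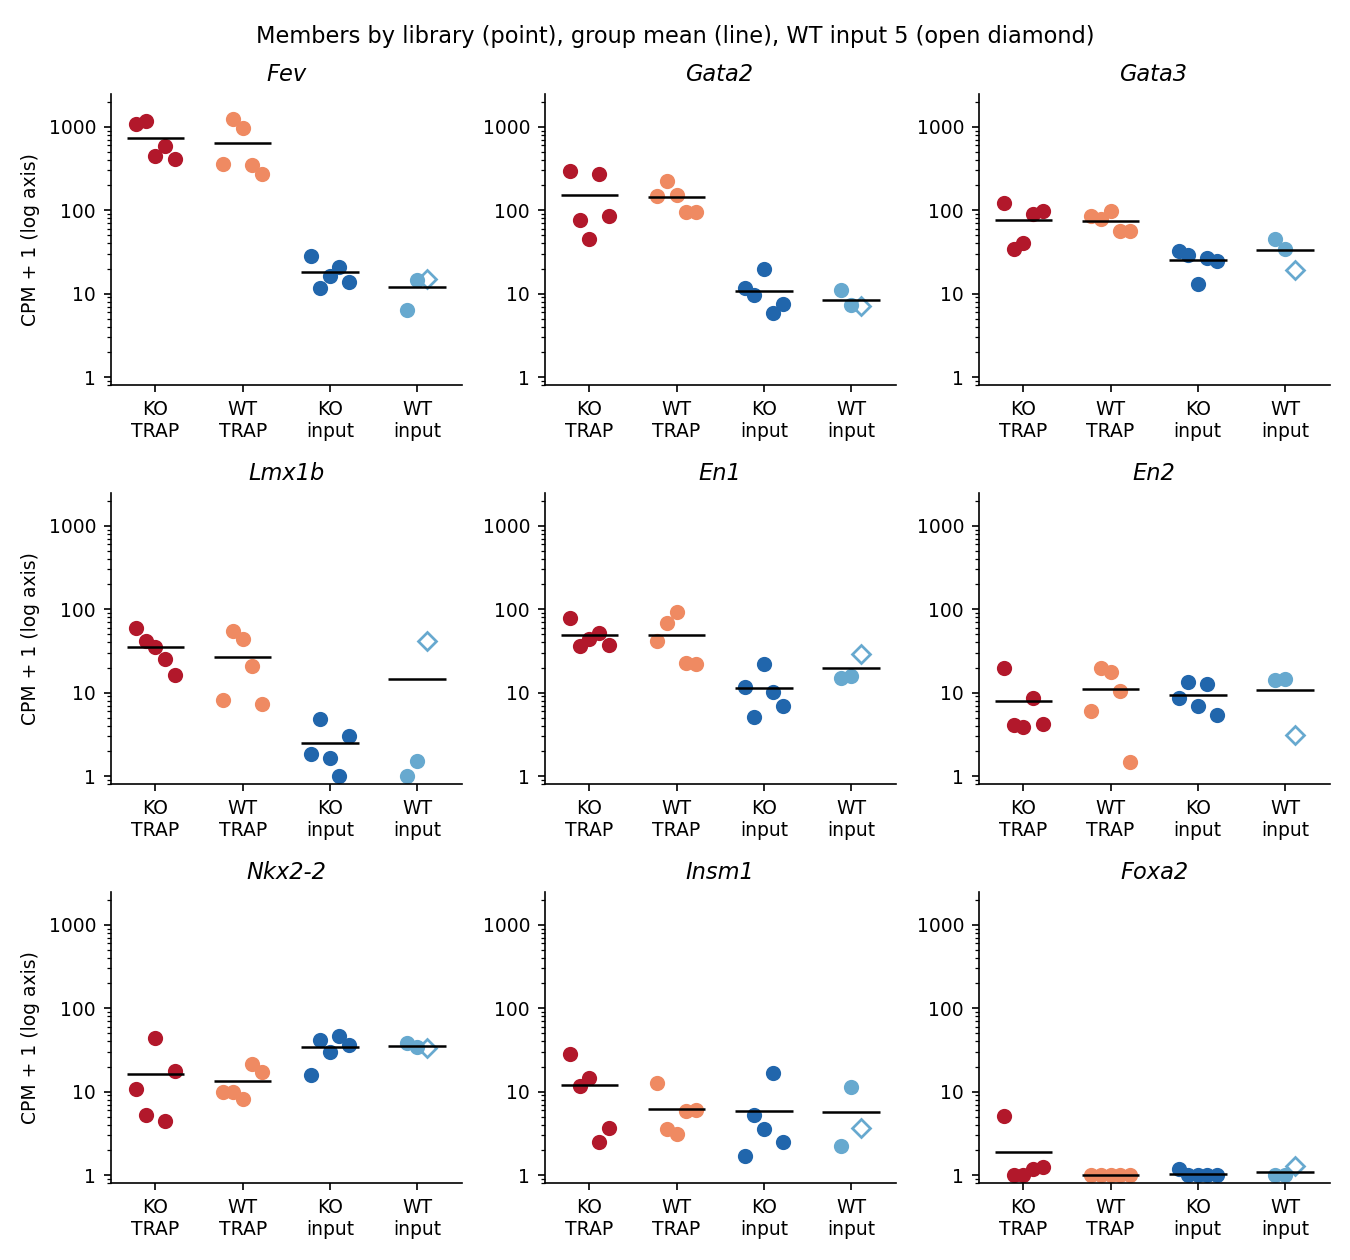
CPM + 1 on a log axis for the 9 members, with 1 point per library in KO TRAP, WT TRAP, KO input and WT input, the group mean as a line and WT input 5 as an open diamond. Fev and Gata2 have TRAP libraries that all lie above the input libraries, Lmx1b has 1 input library at the TRAP level, and Nkx2-2 lies lower in most TRAP libraries than in input.

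Fev (chr1:74881509-74885408, minus strand, mm10) encodes the ETS family factor that is restricted to serotonin neurons in the brain and drives Tph2 and Slc6a4. It had 1079, 1179, 447, 583 and 414 CPM in KO TRAP 1 to 5, 356, 1228, 953, 346 and 270.3 CPM in WT TRAP 1 to 5, 27.6, 10.8, 15.3, 19.6 and 12.9 CPM in KO input 1 to 5, and 5.41, 13.4 and 13.8 CPM in WT input 1, 2/3 and 5. Every TRAP library lay above every input library, a separation that 0.442% of the genes tested showed, and the lowest TRAP library, WT TRAP 5, was far above the highest input library, KO input 1. The log2 difference was 5.55 ± 0.38 (SE, adjusted p = 8.45e-11, edgeR), which placed Fev at rank 6 of 14261 genes by p. Within sequencing run 1 the difference of mean log2 CPM was 6.0, and within run 2 it was 4.67. TRAP libraries differed among themselves by up to 4.54-fold within WT, with WT TRAP 2 and 3 high and WT TRAP 1, 4 and 5 low.

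Fev is also the member whose upstream sequence holds the most of the motifs searched. Promoters of 300 bases, from 250 before to 50 after the start, were taken from RefSeq (GRCm38.p6) for the 7 members the table holds, 10 promoters in all. AGATAA, a form of the site that GATA factors bind, was in 2 of 10 member promoters (20%, in Fev and Foxa2) and in 11.2% of all 32851 promoters. CGGAA, the core of ETS sites such as those of FEV, was in 6 of 10 (60%) and in 29.9% of all. TAATTA, a homeodomain site of the kind LMX1B and the engrailed factors bind, was in 1 of 10 (10%, in Fev) and in 5.29% of all, and the forkhead site TGTTTA was in 0 of 10 and in 13.4% of all. Among promoters of serotonergic effector genes, AGATAA was in 2 of 14 (14.3%, in Tph2 and Slc18a2), against 11.2% of all promoters. CGGAA was in 6 of these 14 (42.9%, against 29.9% of all), TAATTA in 0 of 14 (against 5.29%) and TGTTTA in 1 of 14 (7.14%, against 13.4%). Whether these shares differ was not tested. Both strands were searched, and a match is a description of letters only. The 3 windows of Fev below are shown because they put a GATA, an ETS and a homeodomain motif within 1 promoter, and those of Tph2 (tryptophan hydroxylase, the rate-limiting enzyme of serotonin synthesis) and Slc18a2 (the vesicular monoamine transporter) because these target genes of the pathway hold the same GATA letters. They are read 5′ to 3′ on the strand of the gene with the motif in capitals (TTATCT is AGATAA on the other strand), at chr1:74885509-74885538, chr1:74885452-74885480 and chr1:74885460-74885489 for Fev (minus strand), chr10:115185133-115185162 for Tph2 (minus strand) and chr19:59260636-59260665 for Slc18a2 (plus strand). The homeodomain and ETS windows of Fev overlap.
Fev GATA: attgcgatgggaAGATAAgaggggcggggg
Fev ETS: ctttaattaaaaCGGAAattgcggcccct
Fev homeodomain: gcggccgcacttTAATTAaaacggaaattg
Tph2 GATA: catcaggagcacAGATAAccccaagcttca
Slc18a2 GATA: ccttggccttgaTTATCTtcaggacctttg
The Fev motifs begin 118, 60 and 69 bases before the start in that order, and those of Tph2 and Slc18a2 begin 128 and 230 bases before it.

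Gata2 (chr6:88198664-88207032, plus strand) encodes a zinc finger factor that serotonin precursors of the rostral hindbrain need. It had 293, 75.4, 44.5, 268 and 83.2 CPM in KO TRAP 1 to 5, 147, 223, 150, 94.9 and 95.2 CPM in WT TRAP 1 to 5, 10.8, 8.59, 18.5, 4.79 and 6.46 CPM in KO input 1 to 5, and 9.94, 6.29 and 6.02 CPM in WT input 1, 2/3 and 5. Every TRAP library lay above every input library, with KO TRAP 3 the lowest and the libraries labelled KO TRAP 1 and KO TRAP 4 the highest. The log2 difference was 4.16 ± 0.41 (adjusted p = 1.14e-07, edgeR), at rank 13. It was 3.69 within run 1 and 4.28 within run 2.

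Gata3 (chr2:9857078-9878600, minus strand), the paralog that serotonin neurons of the caudal raphe need most, showed a smaller difference over a higher input level. It had 122, 32.98, 39.7, 88.1 and 96.0 CPM in KO TRAP 1 to 5, 83.5, 77.9, 97.4, 55.7 and 54.6 CPM in WT TRAP 1 to 5, 31.2, 27.8, 12.1, 26.1 and 23.5 CPM in KO input 1 to 5, and 44.6, 33.2 and 18.4 CPM in WT input 1, 2/3 and 5. The groups overlapped, with 8 of 10 TRAP libraries above every input library and KO TRAP 2 and KO TRAP 3 inside the input range. Gata3 rose by 1.44 ± 0.31 on the log2 scale (adjusted p = 0.00698, edgeR), with 1.22 within run 1 and 1.72 within run 2. The call was lost in each genotype alone, with the replicate number as a block (1.39, adjusted p = 0.0789) and with the library labelled KO TRAP 1 and WT input 5 both left out (1.11, adjusted p = 0.0909).

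Per length, as TPM (counts divided by gene length and scaled to the library), the balance of the GATA paralogs differed between the kinds of RNA. The Gata2 level was above the Gata3 level in 9 of 10 TRAP libraries, with a median ratio of 1.74, and in 1 of 8 input libraries, with a median ratio of 0.289. The exceptions were KO TRAP 5, at 0.859, and KO input 3, at 1.51. Other tissue of the midbrain and hindbrain, such as GABAergic neurons, also uses both genes. The 6 markers of such neurons summed to 240.8 to 704 CPM in TRAP and 523 to 1332 CPM in input, with 2 of 5 tested lower (Gad2, −1.03 ± 0.24, adjusted p = 0.0130, and Slc32a1, −1.23 ± 0.37, adjusted p = 0.0497, edgeR), 1 of 5 without WT input 5 and 0 of 5 with the library labelled KO TRAP 1 left out as well. Their part in the GATA values was not tested.

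Lmx1b (chr2:33564536-33640511, minus strand) encodes a LIM homeodomain factor that serotonin neurons need to form and to keep their transmitter genes. It had 58.9, 41.0, 33.8, 24.1 and 15.5 CPM in KO TRAP 1 to 5, 7.12, 53.6, 43.0, 19.6 and 6.41 CPM in WT TRAP 1 to 5, 0.842, 3.79, 0.639, 0 and 2.06 CPM in KO input 1 to 5, and 0, 0.503 and 40.3 CPM in WT input 1, 2/3 and 5. The groups overlapped, with 4 of 10 TRAP libraries above every input library. WT input 5 alone, with 134 counts where the other input libraries had 0 to 26, lay in the upper part of the TRAP range. The 7 other input libraries lay below every TRAP library. That separation is seen only with WT input 5 set aside, and the share of all genes that separate in that set was not counted. With all libraries the log2 difference was 2.65 ± 0.86 (adjusted p = 0.0727, edgeR), which missed the threshold, while DESeq2 called it (2.62, adjusted p = 0.0407), as did edgeR with no expression filter (2.66, adjusted p = 0.000237), with no run covariate (2.74, adjusted p = 0.0465) and with WT input 2 and 3 apart (3.03, adjusted p = 0.0312). Without WT input 5 it was 5.59 ± 0.85 (adjusted p = 0.000222), a size like that of Fev. It was 5.10 within run 1 and 1.29 within run 2, the run that holds WT input 5. WT input 5 did not stand apart in the same way for Fev (13.8 CPM) or Gata2 (6.02 CPM), while it had the highest input levels of En1 (27.7 CPM) and Celf6 (104 CPM).

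The gene next to Lmx1b, C130021I20Rik, begins 682 bases away on the opposite strand and shares no exon with it. It had 86.9 to 389 CPM in TRAP (median 212) and 5.33 to 54.2 CPM in input (median 19.8). All 10 TRAP libraries lay above the input libraries, and C130021I20Rik rose by 3.20 ± 0.43 on the log2 scale (adjusted p = 2.05e-05, edgeR). WT input 5 was again the highest input library, at 54.2 CPM, but here it did not reach the TRAP range.

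En1 (chr1:120602487-120607991, plus strand) encodes a homeodomain factor of the midbrain and rostral hindbrain. It had 77.9, 35.4, 43.0, 50.5 and 35.7 CPM in KO TRAP 1 to 5, 40.6, 66.9, 91.2, 21.5 and 20.9 CPM in WT TRAP 1 to 5, 10.8, 4.08, 21.3, 9.09 and 5.88 CPM in KO input 1 to 5, and 14.0, 15.0 and 27.7 CPM in WT input 1, 2/3 and 5. In 8 of 10 TRAP libraries the level lay above every input library, while WT TRAP 4 and 5 lay inside the input range. En1 rose by 1.74 ± 0.39 (adjusted p = 0.00824, edgeR), with 2.18 within run 1 and 1.05 within run 2, and by 2.04 (adjusted p = 0.0106) with the library labelled KO TRAP 1 and WT input 5 both left out. The call was lost with the replicate number as a block (1.49, adjusted p = 0.162).

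En2 (chr5:28165696-28172166, plus strand), the paralog that is strong in cerebellar and midbrain tissue, was spread over the same range in both kinds of RNA. It had 18.5, 3.10, 2.85, 7.53 and 3.20 CPM in KO TRAP 1 to 5, 4.98, 18.6, 16.6, 9.56 and 0.475 CPM in WT TRAP 1 to 5, 7.58, 12.5, 5.97, 11.7 and 4.41 CPM in KO input 1 to 5, and 13.3, 13.7 and 2.11 CPM in WT input 1, 2/3 and 5. The groups overlapped almost wholly. The log2 difference was −0.07 ± 0.61 with a 95% interval of −1.33 to 1.18 (adjusted p = 0.966, edgeR), and values between a fall and a rise of about 1 log2 unit therefore could not be told apart from 0. With the library labelled KO TRAP 1 and WT input 5 both left out it was −0.66 ± 0.66 (adjusted p = 0.680). The En1 level per length was above that of En2 in 10 of 10 TRAP libraries (median ratio 10.3) and in 7 of 8 input libraries (median ratio 1.68). Cerebellar granule neuron markers, which would accompany cerebellar tissue, summed to 37.2 to 135 CPM in TRAP and 150.05 to 295 CPM in input, and 2 of 6 fell (Zic1, −1.34 ± 0.31, adjusted p = 0.0111, and Barhl1, −1.64 ± 0.42, adjusted p = 0.0229, edgeR), with Zic1 lost without WT input 5 (−1.25, adjusted p = 0.0550). Their part in the En2 values was not tested.

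**Figure D2:**
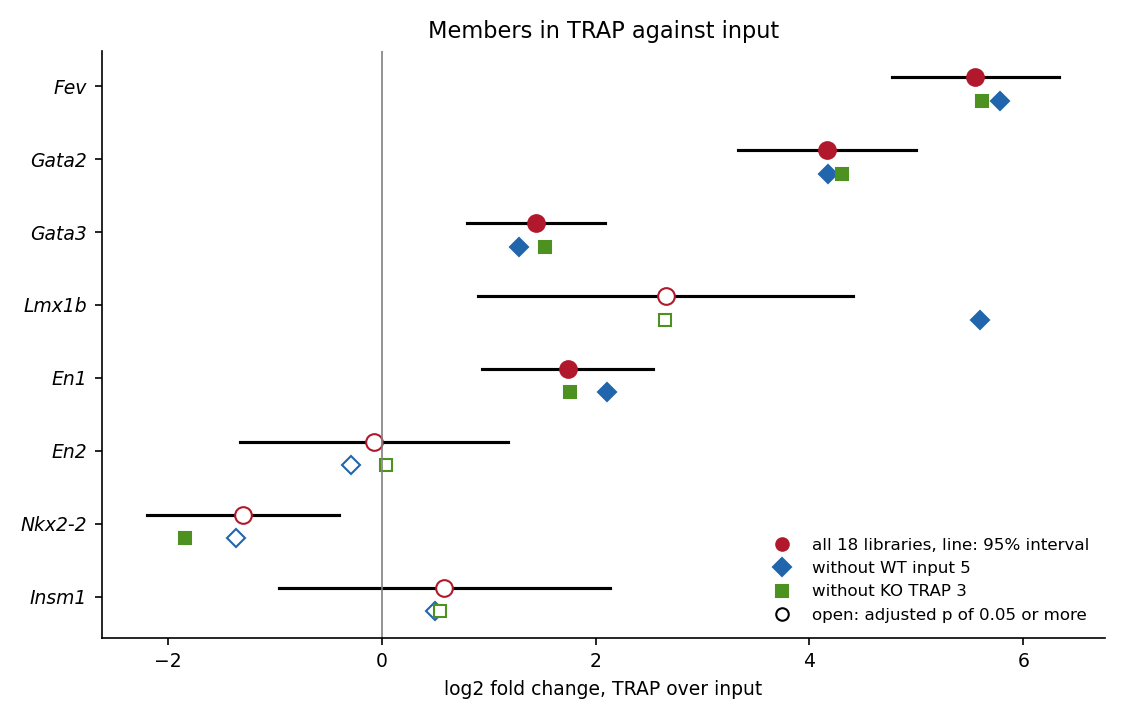
Log2 fold change of TRAP over input for the 8 tested members, with 95% intervals for all 18 libraries (circles), and the values without WT input 5 (diamonds) and without KO TRAP 3 (squares), where an open symbol has an adjusted p of 0.05 or more. Lmx1b moves from 2.65 to 5.59 when WT input 5 is left out, and Nkx2-2 from −1.30 to −1.85 when KO TRAP 3 is left out.

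Among the early factors, Nkx2-2 (chr2:147177546-147186402, minus strand), a homeodomain factor of ventral progenitors that oligodendrocyte precursors also express, was the member with lower levels in TRAP. It had 9.72, 4.25, 42.8, 3.39 and 16.5 CPM in KO TRAP 1 to 5, 8.78, 8.99, 7.08, 20.3 and 16.1 CPM in WT TRAP 1 to 5, 14.8, 40.9, 29.0, 45.2 and 35.0 CPM in KO input 1 to 5, and 37.5, 33.2 and 31.9 CPM in WT input 1, 2/3 and 5. In 6 of 10 TRAP libraries the level lay below every input library, and KO TRAP 3 alone lay in the upper input range. The log2 difference was −1.30 ± 0.44 (adjusted p = 0.0879, edgeR), which missed the threshold, and −1.85 ± 0.40 without KO TRAP 3 (adjusted p = 0.00603). It was −1.56 within run 1 and −1.57 within run 2. DESeq2 called it lower with all libraries (−1.32, adjusted p = 0.0300). Nkx2-2 shares 278 exon bases with Nkx2-2os on the opposite strand, and the counting did not use strand, so its values are uncertain to that extent. Nkx2-2os itself had 0 to 4.34 CPM in TRAP and 0 to 20.9 CPM in input.

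Oligodendrocyte lineage markers, like Nkx2-2, had lower levels in most TRAP libraries than in input. Their 7 genes summed to 924 to 4640 CPM in TRAP and 4458 to 11337 CPM in input, and 4 of 7 fell (Mbp, −1.97 ± 0.22, adjusted p = 1.06e-06, Olig1, −1.81 ± 0.22, adjusted p = 5.33e-06, Olig2, −1.80 ± 0.30, adjusted p = 0.000305, and Sox10, −1.44 ± 0.28, adjusted p = 0.00240, edgeR). None of the 7 was at 0 in all libraries of either kind. The 3 TRAP libraries with the highest sums, WT TRAP 4 (4640 CPM), WT TRAP 5 (4434 CPM) and KO TRAP 3 (4018 CPM), had 20.3, 16.1 and 42.8 CPM of Nkx2-2, while the 7 other TRAP libraries had sums of at most 2264 CPM and 3.39 to 16.5 CPM of Nkx2-2. Among input libraries, WT input 2/3 had the lowest sum (4458 CPM) with 33.2 CPM of Nkx2-2, and WT input 5 the highest (11337 CPM) with 31.9 CPM. KO input 1 (sum 5874 CPM) had the lowest Nkx2-2 level in input, 14.8 CPM, and KO input 4 (sum 6453 CPM) the highest, 45.2 CPM. The part of oligodendrocyte lineage RNA in the Nkx2-2 values was not tested.

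**Figure D3:**
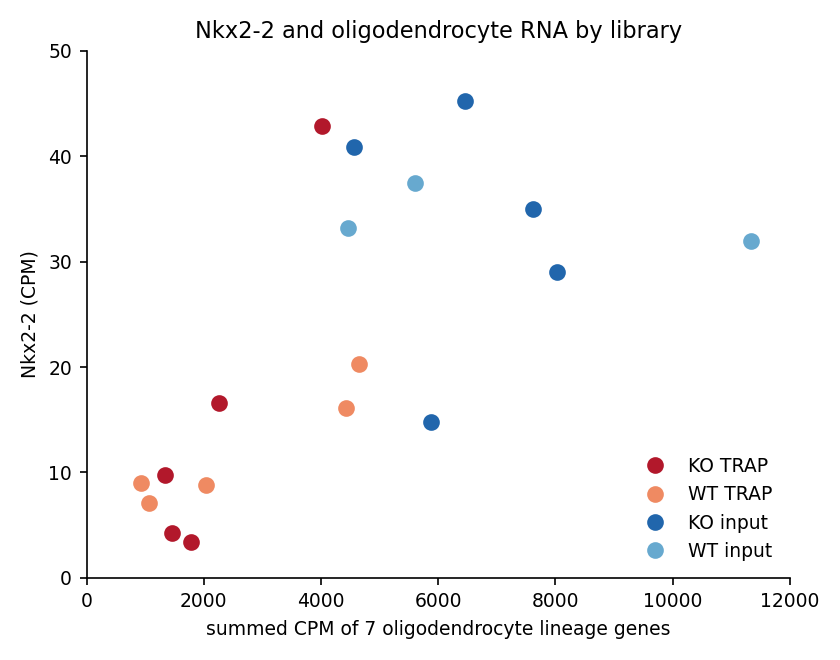
Nkx2-2 in CPM against the summed CPM of 7 oligodendrocyte lineage genes, with 1 point per library coloured by group. The 7 TRAP libraries with sums up to 2264 CPM have 3.39 to 16.5 CPM of Nkx2-2, and the KO TRAP library at 4018 CPM has 42.8 CPM. The input library with the lowest sum, 4458 CPM, has 33.2 CPM of Nkx2-2, and that with the highest, 11337 CPM, has 31.9 CPM.

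Insm1 (chr2:146221997-146225018, plus strand), a zinc finger factor of neurons and endocrine cells at the time they leave the cell cycle, was low and uneven in all groups. It had 27.1, 10.6, 13.6, 1.51 and 2.67 CPM in KO TRAP 1 to 5, 11.6, 2.52, 2.12, 4.78 and 4.98 CPM in WT TRAP 1 to 5, 0.674, 4.22, 2.56, 15.6 and 1.47 CPM in KO input 1 to 5, and 1.22, 10.2 and 2.71 CPM in WT input 1, 2/3 and 5. The groups overlapped, and only the library labelled KO TRAP 1 lay above every input library. The log2 difference was 0.58 ± 0.75 (adjusted p = 0.742, edgeR), with 1.43 within run 1 and −0.21 within run 2. It was 0.30 without the library labelled KO TRAP 1, 1.27 without KO input 4 and 1.304 without WT input 2/3.

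Foxa2 (chr2:148042877-148046969, minus strand), the forkhead factor of the floor plate, was almost without counts. The library labelled KO TRAP 1 had 22 counts (4.11 CPM), KO TRAP 4, KO TRAP 5, KO input 1 and WT input 5 had 1 count each, and the other 13 libraries had 0. In WT TRAP a count of 0 allows up to 3 counts, or 0.444 to 0.764 CPM, for counting error only, and no fold is given between groups at or under that floor. The same library held 38.5 CPM of Foxa1, the paralog of Foxa2, while the other TRAP libraries had at most 5.20 CPM of Foxa1. Shh, which the floor plate secretes, had 0.748 CPM (4 counts) in that library and 0 to 3.83 CPM in the other TRAP libraries. Of the ependyma markers, Foxj1 had 14.6 CPM there, against 0.473 to 23.9 CPM in the other TRAP libraries, while Ccdc153 (10.8 CPM) and Tmem212 (1.12 CPM, 6 counts) were at their highest TRAP level there. Summed with Ttr, a choroid plexus gene on the same list, the 5 genes had 9.91 to 1808 CPM in TRAP and 15.6 to 3960 CPM in input. In the libraries with the highest sums nearly all of this was Ttr, with 1775 CPM in WT TRAP 4 and 3958 CPM in WT input 1. The sums are therefore not a measure of floor plate or ependyma RNA. None of the 5 genes was at 0 in the library labelled KO TRAP 1. The part of floor plate or ependyma RNA in the Foxa2 counts was not tested.

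Levels of different members can be set side by side per length. In TRAP the order of mean TPM was Fev (1169 ± 588), Gata2 (117 ± 67.5), Lmx1b (62.4 ± 35.7), Gata3 (60.6 ± 24.1), En1 (48.5 ± 22.3), Nkx2-2 (14.5 ± 12), Insm1 (6.87 ± 6.52), En2 (6.09 ± 4.69) and Foxa2 (0.480 ± 1.33) (SD, n = 10). Fev was above Gata2 in 10 of 10 libraries, and En1 above Nkx2-2 in 9 of 10, while Gata2 and Lmx1b (8 of 10 in that order), Lmx1b and Gata3 (5 of 10), Gata3 and En1 (6 of 10), Nkx2-2 and Insm1 (7 of 10) and Insm1 and En2 (5 of 10) did not differ beyond their spread. In input the order was Nkx2-2 (38.4 ± 11.4), Fev (27.8 ± 11.3), Gata3 (23.6 ± 8.68), En1 (14.6 ± 8.39), Lmx1b (13.1 ± 29.7, and 2.67 without WT input 5), Gata2 (7.72 ± 3.99), En2 (7.17 ± 3.85), Insm1 (4.56 ± 4.95) and Foxa2 (0.0645 ± 0.126) (SD, n = 8). Most neighbours in input lay within 1 SD of each other, apart from Gata3 above En1, which held in 6 of 8 libraries. Nkx2-2 had the highest mean in input, above Fev in 7 of 8 libraries but within 1 SD of it, and the sixth in TRAP. The mean of Lmx1b in input rests on WT input 5, and Lmx1b was above Gata2 in 2 of 8 input libraries. Within TRAP, the Fev level was above that of its target Tph2 in 3 of 10 libraries, with a median ratio of 0.548.

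**Figure D4:**
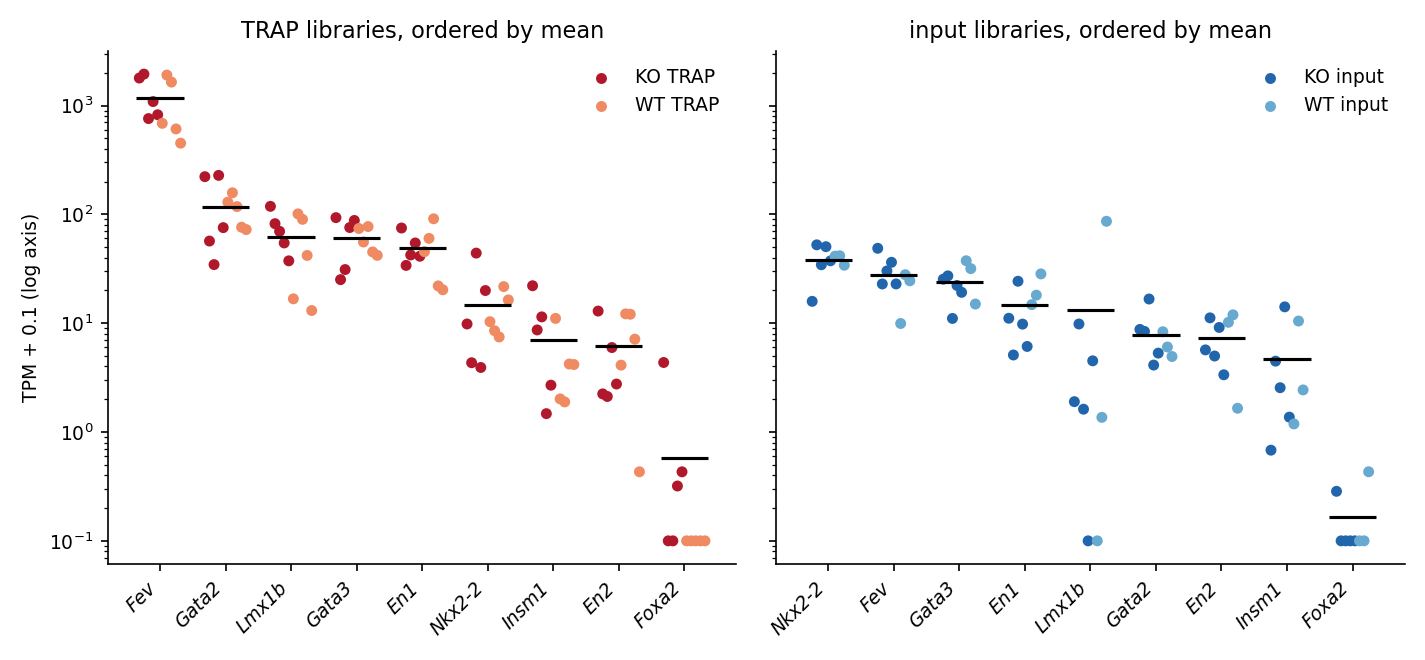
TPM + 0.1 on a log axis for the 9 members in TRAP libraries (left) and input libraries (right), each ordered by its mean (line), with 1 point per library. Fev, with a mean of 1169 TPM, lies above all others in TRAP, and Nkx2-2 has the highest mean in input, 38.4 TPM.

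The genes whose profile over 18 libraries was most like that of a member were named by the mean absolute difference of centred log2 CPM among 11215 genes with at least 5 CPM in TRAP. For Fev they were Cryba2 (0.49), Slc6a4 (0.55), Gchfr (0.55), Ddc (0.61) and Tph2 (0.70). Cryba2, a crystallin gene, lies 4526 bases from Fev on the same strand and had 19.2 to 58.3 CPM in TRAP and 0 to 1.52 CPM in input. For Gata2 they were Ylpm1 (0.57), Ddc (0.58) and Bahcc1 (0.63). For Lmx1b they were Fev (1.07), its neighbour C130021I20Rik (1.09) and Ddc (1.12), at larger distances than for the other members. Gata3 was closest to Ncald (0.33), Syt9 (0.40) and Gng4 (0.40), and En1 to Fgd5 (0.51), Grb10 (0.51) and Cdyl2 (0.52), genes with rises of 1.01 to 1.96 on the log2 scale. Nkx2-2 was closest to Nfic (0.47) and 6330403A02Rik (0.49), which had lower levels in TRAP, Insm1 to Lancl3 (0.70), Scnm1 (0.73) and Zscan22 (0.76), and En2 to Tox2 (0.57), Pygo2 (0.57) and Trnau1ap (0.64). When TRAP libraries alone were used, 0 of the same 5 genes were among the closest to Fev.

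Genes that the factors act on and genes that act beside them were described by list. Of 14 serotonergic effector genes, 10 rose and 0 fell, with a median log2 difference of 3.66 against 0.02 over all genes and 1.59 over the 8 tested members. The 10 were Tph2 (5.89 ± 0.36), Gch1 (5.85 ± 0.37), Gchfr (5.53 ± 0.38), Slc6a4 (5.37 ± 0.32), Slc22a3 (4.64 ± 0.46), Ddc (4.55 ± 0.30), Slc18a2 (4.48 ± 0.35), Maob (2.84 ± 0.40), Maoa (1.54 ± 0.25) and Htr1a (1.395 ± 0.30). The Fev value of 5.55 thus lay among those of Tph2, Gch1, Gchfr and Slc6a4, the Gata2 value of 4.16 between Slc18a2 and Maob, and those of Gata3 (1.44) and En1 (1.74) near Maoa and Htr1a. With either or both of the library labelled KO TRAP 1 and WT input 5 left out, 11 effector genes rose.

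Of 11 tested genes among 12 other regulators of the lineage, 1 rose and 0 fell. It was Nkx6-1, a homeodomain factor of ventral progenitors (2.71 ± 0.77, adjusted p = 0.0411, edgeR), with 4.25 to 26.0 CPM in TRAP and 0 to 5.96 CPM in input. Its call was lost without the library labelled KO TRAP 1 (2.44, adjusted p = 0.0771), without WT input 5 (2.63, adjusted p = 0.122) and without both (2.32, adjusted p = 0.193). Foxa1 had a larger value, 3.84 ± 1.33, that missed the threshold (adjusted p = 0.0969), and 5 of 10 TRAP libraries lay above every input library. Without the library labelled KO TRAP 1, its highest, Foxa1 had 2.84 ± 1.36 (adjusted p = 0.247). Gli2, a mediator of hedgehog signalling, had 1.85 ± 0.64 (adjusted p = 0.0966, edgeR). Nkx6-1, Foxa1 and Gli2 were the only 3 of the 11 with a positive difference, and the median of the 11 was −0.42. Of the regulators with a negative difference, Nkx6-2 (−2.26 ± 0.79, adjusted p = 0.0984) and Gbx2 (−2.21 ± 0.91, adjusted p = 0.174, edgeR) had the smallest p. Of 8 tested relatives of the members among 19, 0 were called, and Foxa1, Etv1 (−1.34 ± 0.47) and Etv4 (−1.99 ± 0.82) had the smallest p. Gata1, Gata4, Nkx2-1, Nkx2-4 and Nkx2-6 had 0 counts in every TRAP and every input library.

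Hox genes pattern the hindbrain behind the territory of En1. Of 13 tested anterior Hox genes, 0 rose and 4 fell, Hoxd3 (−1.77 ± 0.44, adjusted p = 0.0174), Hoxa5 (−1.59 ± 0.38, adjusted p = 0.0133), Hoxc4 (−1.59 ± 0.35, adjusted p = 0.00647) and Hoxb5 (−1.55 ± 0.32, adjusted p = 0.00389, edgeR). Their summed level was 134 to 400.4 CPM in TRAP and 374 to 723 CPM in input. Midbrain dopamine neuron markers had 0 of 5 called (Aldh1a1 −1.85 ± 0.56, Th −1.10 ± 0.52 and Lmx1a −1.43 ± 0.78). Endothelial markers had 0 of 6 (Tie1 −2.27 ± 1.34, Pecam1 −1.44 ± 0.93 and Tek 0.95 ± 1.17). The floor plate and ependyma list had 0 of 4 (Ccdc153 −0.96 ± 1.05, Foxj1 −0.44 ± 0.70 and the choroid plexus gene Ttr −2.63 ± 0.90). Telencephalon markers had 0 of 4 (Neurod6 −0.98 ± 0.56 and Emx2 −1.04 ± 1.09).

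The comparison of KO with WT asks whether loss of CELF6 changes these factors. In TRAP, 0 of the 8 tested members were called, against 0% of 12204 genes by edgeR, and 0 of the 8 had an unadjusted p below 0.05, as 455 of the 12204 genes did. DESeq2 called 0 members and 9 genes. The targeted gene Celf6 was itself not called by edgeR in TRAP (−1.52 ± 0.38 on the log2 scale, adjusted p = 0.999). In input it was not called either (−1.56 ± 0.66, adjusted p = 0.9996, edgeR). The groups overlapped for every member, as they did for all but 0.721% of the genes tested. Fev averaged 740 ± 362 CPM in KO TRAP and 631 ± 432 CPM in WT TRAP, Gata2 153 ± 118 CPM in KO TRAP and 142 ± 52.6 CPM in WT TRAP, and Gata3 75.8 ± 38.3 CPM in KO TRAP and 73.8 ± 18.5 CPM in WT TRAP (SD, n = 5 each). Lmx1b averaged 34.7 ± 16.6 CPM in KO TRAP and 26.0 ± 21.4 CPM in WT TRAP, and En1 48.5 ± 17.6 CPM in KO TRAP and 48.2 ± 30.5 CPM in WT TRAP.

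The intervals of these differences bound what could have been missed. On the log2 scale they were −0.37 to 1.01 for Fev (0.32 ± 0.33), −0.81 to 1.09 for Gata2 (0.14 ± 0.45), −0.78 to 0.85 for Gata3 (0.03 ± 0.39), −0.65 to 1.53 for Lmx1b (0.44 ± 0.52) and −0.69 to 1.04 for En1 (0.18 ± 0.41). They were wider for Nkx2-2 (−1.23 to 1.98), En2 (−2.26 to 1.42) and Insm1 (−1.36 to 2.51). All 8 adjusted p-values were 0.999 (edgeR). Fev and Lmx1b kept a positive sign within both sequencing runs (0.15 and 0.68 for Fev, 0.75 and 0.76 for Lmx1b), while Gata2 (−0.77 and 0.65), Gata3 (−0.66 and 0.73) and En1 (−0.35 and 0.99) turned between runs. Without the library labelled KO TRAP 1, the differences of Gata2 and Gata3 were −0.41 and −0.33.

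In input, 0 of 8 tested members were called, against 0% of 13036 genes by edgeR, and 0 had an unadjusted p below 0.05, as 376 of the 13036 genes did (DESeq2 called 0 members and 4 genes). The groups overlapped for every member, as they did for all but 2.24% of the genes tested. Fev averaged 17.3 ± 6.66 CPM in KO input (n = 5) and 10.9 ± 4.75 CPM in WT input (SD, n = 3), a log2 difference of 0.67 ± 0.66 (interval −0.74 to 2.08). En1 averaged 10.2 ± 6.73 CPM in KO input and 18.9 ± 7.65 CPM in WT input, a difference of −0.89 ± 0.72 (−2.42 to 0.64), and −0.27 without WT input 5. Gata3 had −0.34 ± 0.52 and Nkx2-2 −0.10 ± 0.47, and the value of Lmx1b, −1.03 ± 2.65, had an interval of −6.68 to 4.62 and was 2.62 ± 2.46 without WT input 5, where the WT input mean is 0.252 CPM and not 13.6 CPM. Run 2 holds 1 WT input library, WT input 5, so within that run the genotype and that library cannot be told apart.

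**Figure D5:**
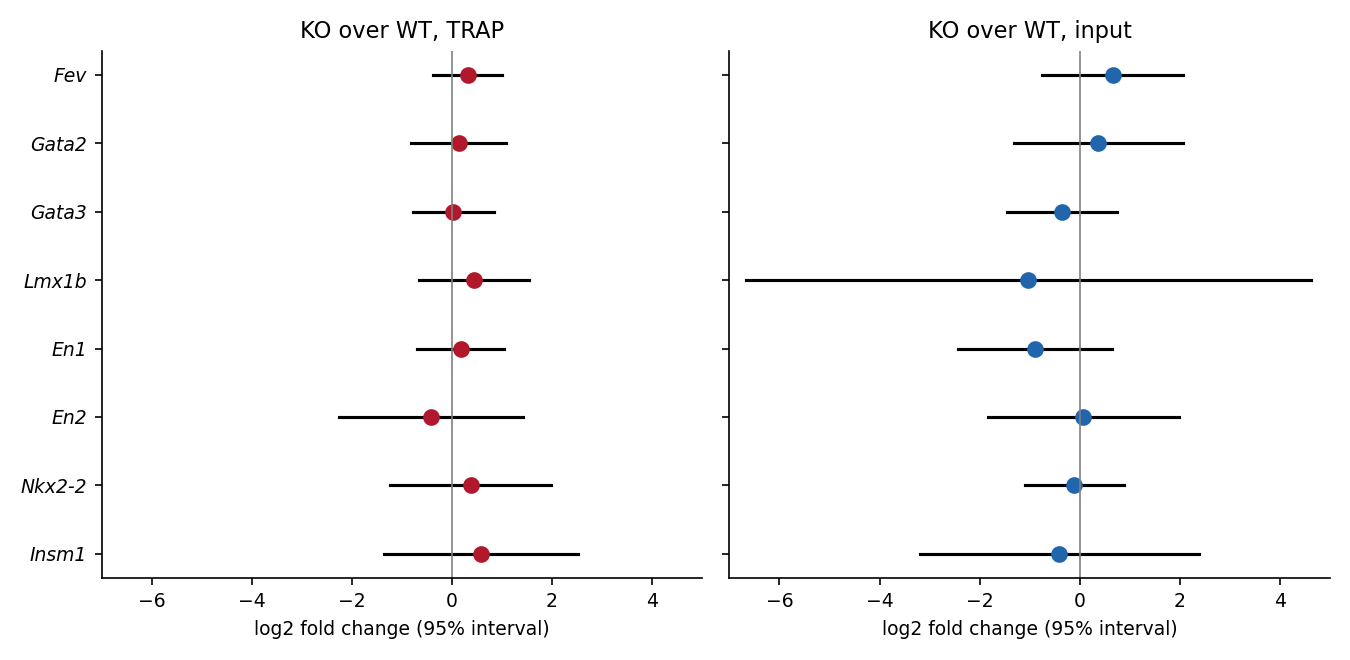
Log2 fold change of KO over WT with 95% intervals for the 8 tested members, in TRAP (left, 5 against 5 libraries) and in input (right, 5 against 3). Every interval includes 0, and that of Lmx1b in input runs from −6.68 to 4.62.

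The genotype difference in TRAP was set against that in input by an interaction term, which called 0 of 8 members and 0% of 14261 genes (edgeR; 554 genes had an unadjusted p below 0.05, and DESeq2 called 4 genes and 0 members). Lmx1b had the smallest p among the members (3.70 ± 1.60, unadjusted p = 0.0291, adjusted p = 1.00), and its value without WT input 5 was −2.17. The next was En1, at 1.08 ± 0.74, and 0.38 without WT input 5. When TRAP was set against input within each genotype, Lmx1b rose by 4.48 ± 0.81 in KO (adjusted p = 0.00584, edgeR) and had 2.53 ± 1.87 in WT (adjusted p = 0.613), and En1 rose by 2.26 ± 0.52 in KO (adjusted p = 0.0429) and had 1.16 ± 0.57 in WT (adjusted p = 0.388). Gata3 had 1.61 ± 0.44 in KO (adjusted p = 0.106) and 1.28 ± 0.37 in WT (adjusted p = 0.1099, edgeR), and neither passed the threshold. Fev was 5.36 ± 0.39 in KO and 5.72 ± 0.56 in WT, and Gata2 4.01 ± 0.57 in KO and 4.26 ± 0.40 in WT, each past the threshold in both genotypes.

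In the authors' deposited splicing tables, which list 8935 events for each kind of RNA, 1 event belongs to a member. It is an alternative 3′ splice site of Gata3 (chr2:9877352-9890034, mm10). The event reaches beyond the gene model used for counting (chr2:9857078-9878600) and across 9230102O04Rik on the same strand. In the authors' deposited table the fraction of the isoform called B (PSI), which the header does not define for this event type, was 0.959 in the library labelled KO TRAP 1 and 0.945 in KO TRAP 4, 0.949, 0.980, 0.978 and 0.952 in WT TRAP 1 to 4, and 0.962 in WT input 2, with no value kept in KO input. With values in 2 KO libraries no test was made. The authors' deposited table calls Gata3 a target of CELF6 by crosslinking (CLIP) in its coding sequence, by comparison with the pull-down from wild type littermates and not by that with input. None of the 960 tandem UTR events belongs to a member.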

How the data were processed

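Counts per gene were used as the authors deposited them, 1 file per library, made with featureCounts 1.4.6-p5 on mm10 gene models (exons summed per gene, no strand option, no multi-mapping reads) per the file headers. Trimmomatic and STAR are named, without versions, in the submitters' processing notes. MISO gave the PSI values, which are fractions in the deposited tables, present for events whose credible interval spans 0.20 or less, and the same deposited tables hold TRUE or FALSE calls of CELF6 CLIP targets. RNA was amplified before library preparation per the labels, so counting intervals and floors cover counting error only.

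Of 24 samples, 19 libraries were used, while 4 repeat runs and the WT input library that its label calls an outlier entered no comparison. WT input 2 and 3 were summed after a chi-square per gene over genes with at least 10 counts, which left 18 libraries. Differences were fitted over all genes with edgeR 4.0.16 (R 4.3.3) by quasi-likelihood F tests, after its expression filter and TMM normalization, with 1 coefficient per group, the sequencing run as a covariate and Benjamini-Hochberg adjustment over all genes tested (threshold 0.05). TRAP against input is the mean of the KO and WT differences. KO against WT was fitted within TRAP and within input, and the interaction over all libraries. CPM are counts over library totals scaled by TMM factors, and TPM use the gene lengths of the count files. The fit was tested on simulated counts with known changes. In KO against WT in TRAP it found 6.25% of 2-fold and 50% of 4-fold changes. In KO against WT in input it found 4.08% of 2-fold and 43.75% of 4-fold changes. In TRAP against input it found 16% of 2-fold and 64.6% of 4-fold changes. Small genotype differences could therefore be missed. Alternatives were DESeq2 1.42.0, no expression filter, a replicate block, no run covariate, WT input 2 and 3 apart, each genotype alone, each library left out, and, chosen after seeing the data, the library labelled KO TRAP 1 and WT input 5 both left out, and the lists without either or both.

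The replicate number was checked by correlating the deviations of same-numbered libraries from group and run means. For TRAP with input r lay between −0.186 and 0.037 in 5 KO pairs and between −0.164 and −0.043 in 2 WT pairs. The numbers were therefore not taken as pairs. Sex-linked RNA was alike in same-numbered TRAP and input libraries of KO 2 to 5 and WT 1. Xist had 214 CPM in KO TRAP 3 and 72.3 CPM in KO input 3. Kdm5d had 60.2 CPM in KO TRAP 2 and 47.6 CPM in KO input 2. It differed for KO 1 (Kdm5d 17.4 CPM in TRAP, 0 CPM in input) and for WT 5. Whether a number marks shared tissue was not tested. The members and gene lists were chosen with earlier results of these data known. Named are the 9 members, Celf6, from each list the genes past the threshold in TRAP against input or else the 3 with the smallest p, and the genes most like a member (the 5 closest to Fev, 3 for others, by log2 CPM with a prior count of 2), apart from genes that are not reported here. Lists were serotonergic effector genes, other regulators of the lineage, relatives of the members, anterior Hox genes, and markers of telencephalon, midbrain dopamine neurons, GABAergic neurons, oligodendrocyte lineage, endothelium, cerebellar granule neurons, and floor plate and ependyma.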

Additional observations from a re-analysis of the deposited data

Results flagged for a closer look

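Among 26 sets of a member and a group of 4 to 10 libraries, 3 held a library far from the others by a gap test. Its cut-offs are those of the 95% level for normal values, and they were applied to untransformed CPM, so the rate of chance flags is not known. A set with 1 count in 1 library and 0 in the others, as for Foxa2 in KO input, is always flagged. Insm1 had 15.6 CPM in KO input 4, against 0.674 to 4.22 CPM in the 4 other KO input libraries. Foxa2 had 4.11 CPM (22 counts) in the library labelled KO TRAP 1, against 0 to 0.267 CPM in the 4 other KO TRAP libraries, and 0.168 CPM, a value of 1 count, in KO input 1.

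The WT input library that the labels call an outlier entered no comparison. Scaled to its own total without TMM factors, it had 21.5 CPM of Gata2, which is 7 counts, against 5.76 to 9.98 CPM in the WT input libraries that were used. It had 329 CPM of Nkx2-2 (107 counts), against 31.3 to 37.9 CPM in those libraries. Lmx1b, Insm1, Foxa2, En1 and En2 had 0 counts in it.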

How the results depend on the processing

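In TRAP against input, Fev and Gata2 were called under every alternative run, with 5.34 to 5.79 for Fev and 3.93 to 4.30 for Gata2 when 1 library was left out. All genes past the threshold numbered 673, and 1332 with DESeq2, 1065 with no expression filter, 124 in KO alone, 160 in WT alone, 337 with the library labelled KO TRAP 1 and WT input 5 both left out, and 346 to 831 with 1 library left out (346 without WT input 5). The replicate block gave 207 genes and 2 members, WT alone 2 members, and leaving out 1 library 4 to 5 members. Same-numbered libraries did not pair by correlation, while sex-linked RNA was alike in most same-numbered TRAP and input libraries. The loss of the Gata3 and En1 calls under the block therefore stands as a limit on them. In KO against WT in TRAP, DESeq2 called 9 genes and no filter 16. In input, DESeq2 called 4, no filter 4, the block 5, and leaving out 1 library 0 to 1. In the interaction, DESeq2 called 4 and no filter 3. No member was among these calls.

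Signs turned for some members. En2 in TRAP against input was 0.36 in WT alone and −0.37 to 0.17 with 1 library left out (0.053 without WT input 2/3). In KO against WT in TRAP, the block gave Gata2 −0.22, Gata3 −0.10 and Nkx2-2 −0.21, and leaving out 1 library gave Gata2 −0.41 to 0.45, Gata3 −0.33 to 0.28, Nkx2-2 −0.53 to 0.82, En1 −0.0062 to 0.42 and En2 −1.13 to 0.081. In input, no run covariate gave Insm1 0.036 and En2 −0.20, WT input 2 and 3 apart gave En2 −0.0059, and leaving out 1 library gave Lmx1b −3.20 to 2.62, Insm1 −1.21 to 1.302 (0.073 without KO input 1), Nkx2-2 −0.33 to 0.12 and En2 −0.63 to 0.36. In the interaction, the block gave Fev 0.20, Insm1 −0.60, Nkx2-2 −0.047 and En2 1.11, Lmx1b was −2.28 with both libraries left out, and leaving out 1 library gave Fev −0.90 to 0.027, Gata2 −0.69 to 0.082, Lmx1b −2.17 to 4.65, Insm1 −0.22 to 1.78 and Nkx2-2 −0.39 to 0.88. The cause was not tested. The order by TPM held for 9 of 9 members with TMM-normalized FPKM, and 5 of 5 genes most like Fev were shared with a prior count of 0.5 and 0 of 5 with TRAP libraries only. Low counts limit Foxa2, Insm1 and, in input, Lmx1b, which had 47 counts over the 7 input libraries other than WT input 5.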

Other observations

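The 4 repeat runs, which entered no comparison, give the technical spread of these genes. In 30 pairs of values with at least 10 counts in both runs, the log2 ratio of the repeat to the first run lay between −0.55 and 0.46, with a median size of 0.14. Fev had 435 CPM in the repeat and 457 CPM in the first run of KO TRAP 3, and 944 CPM in the repeat and 968 CPM in the first run of WT TRAP 3, scaled to each run's own total. In the 7 cases of a TRAP and an input library of the same genotype and number, Fev, Gata2 and Gata3 were higher in TRAP in 7 of 7. Lmx1b, Insm1 and En1 were higher in 6 of 7, Foxa2 in 3 of 7, and Nkx2-2 and En2 in 1 of 7. For Fev and Gata2 this follows from every TRAP library lying above every input library. The numbers were not taken as pairs and the share over all genes was not counted, so these counts are a description only.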
